A study of Mus musculus with 6 samples.

Results

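The 7 genes described here are used to recognise bile duct cells and hepatic progenitor cells: Epcam, Cd24a, Prom1, Cd44, Ncam1, Cdh1 and Bicc1. They were taken by symbol from a table of 16603 genes counted in mouse liver, all 7 were found there, and all 7 were among the 12612 genes with enough reads to be tested. The liver RNA came from 3 samples labelled WT (wild-type) and 3 labelled Mdr2 knockout (Mdr2-/-). Mdr2 is the protein of the gene Abcb4, a hepatocyte transporter that brings phosphatidylcholine into bile; mice without it develop chronic injury around the bile ducts. The labels give tissue and genotype and leave out age, sex, strain, the allele and whether the samples of a group are separate animals, and each p-value therefore rests on a spread that could be technical. The question behind the comparison, as the series' design text has it, is how progenitor cells expand and turn into duct cells.

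Abcb4 reads were not reduced in the libraries labelled Mdr2 knockout. Its level was 434 to 513 CPM (counts scaled to library size, with the TMM method) there and 273 to 369 CPM in the WT-labelled libraries. The count covers the whole gene and the part that the allele removes is not given, so it does not check the genotype; groups are therefore named by their labels, and every direction is that of the labelled libraries. The libraries held 17100393 to 18124467 counts. The liver identity of the tissue was plain in both groups, with Alb at 85388 and 49467 CPM on average. Because this is bulk tissue, more cells that carry a transcript and more transcript per cell cannot be told apart.

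In the healthy adult liver most of these proteins sit on the cells that line bile ducts. After chronic bile duct injury, small duct-like structures spread from the portal tracts, a change known as the ductular reaction, and surface proteins such as EpCAM, CD24, CD133 (the product of Prom1), CD44 and NCAM are used to stain or sort those cells. None of the 7 is confined to ducts: E-cadherin (Cdh1) is also made by hepatocytes, CD44 and CD24 by leukocytes, and NCAM by nerve and by some stellate cells and fibroblasts. Bicc1 differs in kind, since it encodes a cytoplasmic RNA-binding protein and no surface protein.

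All 7 genes were higher in the libraries labelled Mdr2 knockout by edgeR's quasi-likelihood test at an adjusted p under 0.05, where 20.9% of all tested genes were called higher. For each of the 7, every knockout-labelled library lay above every WT-labelled library, which held for 27.6% of all tested genes (51.3% did not overlap in either direction). Each change was at least 2-fold. Of all tested genes, 11.1% were called higher and 0.753% called lower with a change of at least 2-fold. Calls of any size in either direction made up 37.1% and lower calls 16.3%. The log2 fold changes ran from 1.51 for Cd44 to 3.95 for Cd24a, with a median of 2.58 against 0.01 for all tested genes. By size they were a steep pair, Cd24a and Epcam, a middle pair, Prom1 and Bicc1, and a flatter pair, Cdh1 and Cd44. Ncam1 (1.99, SE 0.56) could not be placed, since its value ran from 1.49 to 3.35 with each library left out. Together the 7 took 53.2 to 62.5 CPM in the WT-labelled and 213 to 227 CPM in the knockout-labelled libraries. The members were chosen with results of these data known, so these counts describe them and are no independent evidence.

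**Figure D1:**
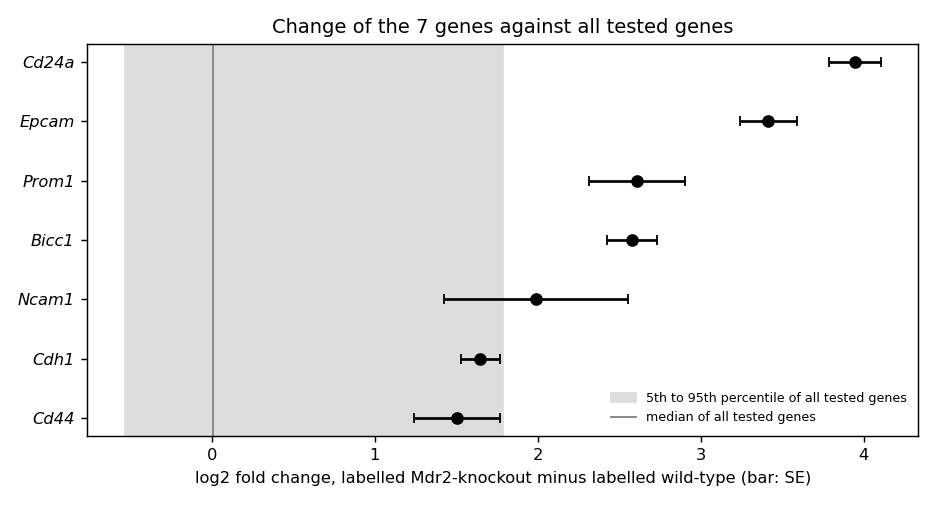
Log2 fold change of each of the 7 genes (knockout-labelled minus WT-labelled, 3 libraries each, edgeR; bars are the standard error). The grey band spans the 5th to the 95th percentile of all tested genes (-0.53 to 1.79) and the line their median; Cdh1 and Cd44 lie within the band and the other 5 points beyond it.

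Levels of the 7 genes were set side by side per length, in the deposited FPKM, which divide by transcript length and library size. In the WT-labelled libraries Cdh1 led at 8.52 ± 1.34 FPKM (SD, n = 3), followed by Cd44 at 1.12 ± 0.431, Bicc1 at 0.678 ± 0.0855, Cd24a at 0.624 ± 0.117, Epcam at 0.491 ± 0.076, Prom1 at 0.139 ± 0.0421 and Ncam1 at 0.0316 ± 0.0346 FPKM. The libraries of Bicc1 and Cd24a overlapped, as did those of Cd24a and Epcam, and the other neighbours in that order did not. In the knockout-labelled libraries the order was Cdh1 at 32.7 ± 2.82 FPKM, Cd24a at 11.8 ± 1.24, Epcam at 6.45 ± 0.37, Bicc1 at 4.96 ± 0.857, Cd44 at 3.92 ± 0.684, Prom1 at 1.05 ± 0.315 and Ncam1 at 0.157 ± 0.0262 FPKM. There only Bicc1 and Cd44 overlapped. By mean, Cd44 thus moved from the second place to the fifth. Cd24a and Epcam passed it without overlap, and Bicc1 passed it by mean only. Cdh1 lay above 75.4% of all genes in the table in the WT-labelled group and above 90.5% in the knockout-labelled group, and Cd24a above 38.6% and 78.2%. Ncam1 stayed near the bottom, above 18.05% and 21.9%.

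**Figure D2:**
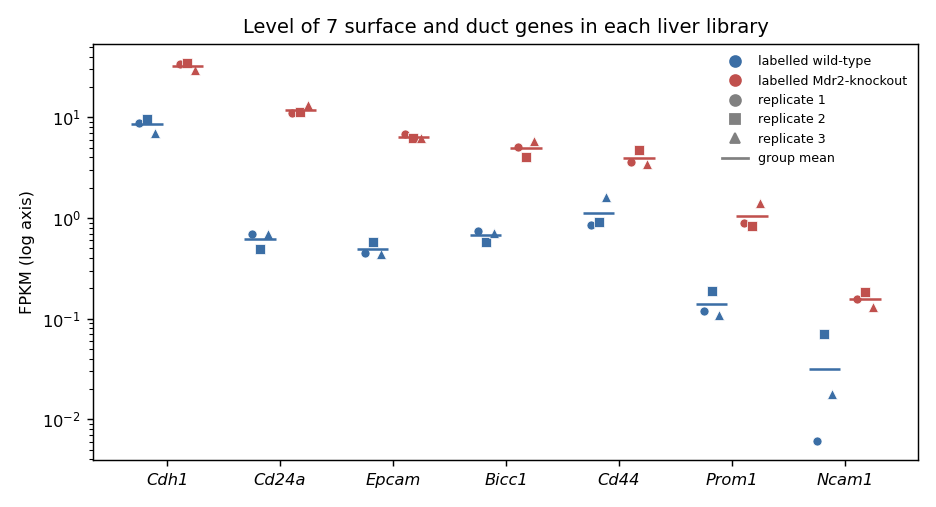
Level of each of the 7 genes in FPKM on a log axis, with 1 point per library (blue, WT-labelled; red, knockout-labelled; shapes mark the replicate number) and a line at the group mean. The groups are apart for every gene; the widest spread is that of Ncam1 in the WT-labelled libraries, from 0.00609 to 0.071 FPKM.

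Epcam encodes the epithelial cell adhesion molecule, a transmembrane protein of most simple epithelia that adult hepatocytes do not carry. It lies on chromosome 17 from 87635979 to 87651129 on the plus strand (GRCm38, GENCODE M21). Its level was 1.02, 1.34 and 1.01 CPM in WT-labelled replicates 1, 2 and 3, and 12.7, 11.8 and 11.5 CPM in knockout-labelled replicates 1, 2 and 3. The lowest knockout-labelled library was at 8.6 times the highest WT-labelled library. Within the knockout-labelled group the libraries were close, with a coefficient of variation of 5.33%, the smallest of the 7 genes there. The fold change was 10.7 (log2 3.41, SE 0.17, edgeR adjusted p = 1.8e-06), and 1.02% of the tested genes had a higher log2 fold change.

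The 250 bases before the RefSeq start site of Epcam (chr17:87635729-87635978, plus strand, GRCm38.p6) are shown because factors that hold Epcam and Cdh1 down in non-epithelial cells, SNAI and ZEB proteins, are known to bind the E-box letters CACCTG, which are in capitals on either strand.
Epcam: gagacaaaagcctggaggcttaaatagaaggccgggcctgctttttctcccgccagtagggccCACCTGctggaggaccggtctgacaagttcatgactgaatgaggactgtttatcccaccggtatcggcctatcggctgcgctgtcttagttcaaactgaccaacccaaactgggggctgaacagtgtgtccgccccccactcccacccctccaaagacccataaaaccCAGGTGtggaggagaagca
These letters occurred 187 and 19 bases before the start site, on the plus and the minus strand of the gene. Of 32851 RefSeq windows of the same length, 17.2% held CACCTG on either strand. The other motifs searched on both strands had no match in this window. They were GGAATG for the TEAD factors of Hippo signalling, TGGGAA for RBPJ of Notch signalling, TGANTCA for the stress-responsive AP-1 factors, GTTAAT for the HNF1 factors of liver epithelium, AACCNGGTT for grainyhead-like factors of epithelia, and TATAAA for the core promoter element known as the TATA box. A match is a description of letters and no evidence of binding. Promoter windows were matched for 3 of the 7 genes, Epcam, Cd44 and Prom1.

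Among the proteins that bind EpCAM or cut it, 6 of 13 tested genes rose, 0 fell and 7 did not pass, with a median log2 fold change of 0.19. The tetraspanin gene Tspan8 rose from 0.572 ± 0.447 to 13.6 ± 1.28 CPM and the tetraspanin gene Cd9 from 15.2 ± 2.03 to 48.0 ± 0.306 CPM. St14, the membrane protease matriptase that cleaves EpCAM, rose by 3.33 on the log2 scale and its inhibitor gene Spint1 by 3.16. The EpCAM-binding claudin gene Cldn7 rose by 3.00 and the LIM-domain gene Fhl2 by 3.28. Cldn7 and Fhl2 stayed under the low-count filter level in every WT-labelled library. The lowest WT-labelled libraries of Tspan8 (0.127 CPM) and Spint1 (0.319 CPM) were under it too. Tspan8, Spint1, Cldn7 and Fhl2 were thus tested only through the group where they were high, so the 6 of 13 is a description. The genes of the sheddases and of gamma-secretase, which cut EpCAM in many cell types and are named here outside the naming rule, lay far closer to 0: Adam10 at 0.19, Adam17 at 0.14, Bace1 at -0.06, Psen2 at 0.03 and Ncstn at -0.06 on the log2 scale. Spint2 was at 0.17. The 7 genes of the list that did not pass had edgeR adjusted p-values of 0.0728 to 0.845. With total counts as the scaling, which moved the median of all genes up by 0.29, 12 of the 13 were called higher.

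Cdh1 encodes E-cadherin, the adhesion protein of epithelial adherens junctions, and lies on chromosome 8 from 106603351 to 106670246 on the plus strand. It stood at 42.6, 48.2 and 34.7 CPM in WT-labelled replicates 1, 2 and 3, and at 135, 140.3 and 118 CPM in knockout-labelled replicates 1, 2 and 3. The groups were 2.45 times apart at their nearest libraries. The fold change of Cdh1 was 3.14 (log2 1.65, SE 0.12, edgeR adjusted p = 2.71e-05). By number of reads this was the largest change of the 7, 1974 counts against 7782.

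Other cadherins did not all follow. The kidney and duct cadherin gene Cdh6 rose from 0.402 ± 0.0731 to 5.4 ± 0.4 CPM and the P-cadherin gene Cdh3 from 0.255 ± 0.17 to 1.93 ± 0.222 CPM (3.72 and 2.89 on the log2 scale, edgeR adjusted p = 7.17e-06 and 0.000625). Cdh2, the gene of the N-cadherin that hepatocytes carry beside E-cadherin, had 105 ± 10.3 and 95.3 ± 7.03 CPM, with overlapping groups (log2 fold change -0.14, edgeR adjusted p = 0.223, and 0.15 with total counts). Of 16 tested cadherins, catenins and nectins, 6 rose, 1 fell and 9 did not pass. Among the risers, Cdh6, Cdh3 and Cdh11 stayed under the low-count filter level in every WT-labelled library. They were tested only through the group where they were high, so the 6 is a description. Cdh11 passed in 8 of 13 alternatives. Its call was lost with DESeq2, without WT-labelled replicate 1 or 2 and without knockout-labelled replicate 1 or 3. The vinculin gene Vcl (0.42), the alpha-catenin gene Ctnna1 (0.36) and Nectin2 (0.35) were among the risers, and Nectin3 was the gene that fell, with a log2 fold change of -0.46 that did not pass with total counts (-0.16). The catenin genes Ctnnb1 and Ctnnd1, whose proteins bind the tail of E-cadherin, had 0.10 and 0.16 on the log2 scale and did not pass. With total counts 13 of the 16 were higher and 0 lower.

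The factors known to repress Cdh1 and those known to keep epithelial genes on were counted next. Of 5 tested repressor genes, Zeb2 rose from 11.6 ± 1.7 to 19.7 ± 0.493 CPM and Snai2 from 2.71 ± 0.385 to 4.82 ± 1.30 CPM, 0 fell, and Snai1 (0.99, edgeR adjusted p = 0.0548), Tcf3 (-0.13) and Zeb1 (-0.07) did not pass. The call of Snai2 was lost without WT-labelled replicate 2 or 3 or knockout-labelled replicate 1 or 2 (edgeR adjusted p up to 0.0879). All 5 tested factors of the epithelial programme rose: Ehf, Elf3, Grhl2, Grhl1 and Klf5 had log2 fold changes of 3.67, 3.69, 2.48, 1.77 and 2.17. Grhl2, a grainyhead-like factor known to act on Cdh1, went from 9 counts to 65, and Grhl3, Ovol1, Ovol2 and Tfap2a were too low to be tested. A low gene that passes the filter only through the group where it is high had to differ, so the 5 of 5 is a description.

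Hepatocytes also contain E-cadherin, and their markers went the other way. Of 19 tested hepatocyte markers 0 rose and 15 fell, and their summed level was 170163 to 180017 CPM in the WT-labelled and 108220 to 111869 CPM in the knockout-labelled libraries. With total counts 2 were higher and 8 lower. Duct markers moved with Cdh1: 15 of 16 tested markers rose, 0 fell, and their sum was 198 to 228 CPM and 566 to 641 CPM. Some of these markers, such as Cftr and Krt7, stayed under the low-count filter level in every WT-labelled library. Such genes were tested only through the group where they were high, so the 15 of 16 is a description. The part of either cell type in the change of Cdh1 was not tested.

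Cd24a encodes CD24, a small, heavily glycosylated protein held in the membrane by a lipid anchor. It lies on chromosome 10 from 43578284 to 43584265 on the plus strand. Its level was 1.65, 1.21 and 1.70 CPM in WT-labelled replicates 1, 2 and 3, and 21.8, 22.6 and 26.4 CPM in knockout-labelled replicates 1, 2 and 3. No library came near the other group, and the lowest knockout-labelled library was 12.8 times the highest WT-labelled library. The fold change of 15.4 was the largest of the 7 (log2 3.95, SE 0.16, edgeR adjusted p = 5.41e-07), and by p-value Cd24a ranked 3 among all tested genes. Reads of near-identical retrocopies of a short transcript like this could have been shared or lost in counting, which the sources used here do not settle.

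Cells other than ducts carry CD24, among them red cell precursors, B cells and neutrophils. Of 6 tested erythroid genes 0 rose and Alas2 fell (log2 fold change -0.46, edgeR adjusted p = 0.0193; -0.17 and not passed with total counts, and lost without WT-labelled or knockout-labelled replicate 3); the list's summed level was 209 to 485 CPM in the WT-labelled and 216 to 241 CPM in the knockout-labelled libraries. Without WT-labelled replicate 3, whose erythroid sum was the highest, 2 erythroid genes were called higher and 0 lower. The B cell genes Cd79a (37 and 44 counts over the groups) and Ms4a1 (15 and 10) were near the detection floor, and the neutrophil gene Ly6g had 0 counts in all 6 libraries. The neutrophil gene S100a8 rose from 0.824 ± 0.438 to 2.25 ± 0.216 CPM, and S100a9 did not pass (0.86 on the log2 scale, edgeR adjusted p = 0.0873; 1.15 and 0.0217 with total counts). Not every WT-labelled library of S100a8 reached the low-count filter level. S100a8 was thus tested only through the group where it was high, and its call is a description. The part of red cell precursors, B cells and neutrophils in the change of Cd24a was not tested. Of the receptors that bind CD24, the P-selectin gene Selp did not pass (0.57 on the log2 scale), and Siglecg, with 10 and 32 counts, was not tested. Selplg, whose protein binds P-selectin as CD24 does, rose from 2.47 ± 1.06 to 5.14 ± 0.918 CPM, a call that 4 of the 6 fits with a library left out did not keep.

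Prom1 encodes prominin-1 or CD133, a protein with 5 membrane-spanning segments that sits on microvilli and other protrusions. It lies on chromosome 5 from 43993620 to 44102032 on the minus strand, and an antisense gene, Gm16401, which is not in the count table, shares 424 of its exonic bases. The WT-labelled libraries held 0.954, 1.53 and 0.883 CPM in replicates 1, 2 and 3, and the knockout-labelled libraries 5.85, 5.54 and 9.25 CPM. Replicate 3 of the knockout-labelled group stood apart from the other two, and the coefficient of variation there was 29.9%, the widest of the 7 genes in that group. The fold change was 6.09 (log2 2.61, SE 0.29, edgeR adjusted p = 0.000143), and without that replicate the log2 fold change was 2.33. Its relative Prom2 was scarcely detected, with 3 counts over the WT-labelled and 2 over the knockout-labelled libraries.

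Bicc1 encodes an RNA-binding protein that is known to regulate its target messenger RNAs in kidney tubules and bile ducts, and whose loss in mice gives cystic kidneys. It lies on chromosome 10 from 70922832 to 71159700 on the minus strand, and the antisense gene 4930533K18Rik, absent from the count table, shares 349 of its exonic bases. Its level was 4.51, 3.64 and 4.35 CPM in WT-labelled replicates 1, 2 and 3, and 25.3, 20.5 and 28.9 CPM in knockout-labelled replicates 1, 2 and 3. The groups did not overlap and were 4.55 times apart at their nearest libraries. The fold change was 5.97 (log2 2.58, SE 0.15, edgeR adjusted p = 2.97e-06).

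The partners of Bicc1 and genes of cystic kidney and liver disease gave a mixed picture, with 7 of 16 tested genes higher, 2 lower and 7 that did not pass. Pkhd1, the fibrocystin gene of bile duct cilia, rose from 7.01 ± 0.812 to 22.2 ± 2.38 CPM, and Pkd2, the polycystin-2 gene, which Bicc1 is known to regulate, from 22.1 ± 1.42 to 34.5 ± 1.43 CPM. The transcription factor genes Glis3 and Glis2 rose by 1.97 and 1.85 on the log2 scale, Dzip1l by 2.13 and Invs by 0.35. Its direct partners were called differently: Anks3 fell by 0.32 on the log2 scale (edgeR adjusted p = 0.0268; -0.03 and not passed with total counts), and Anks6 had 18 and 54 counts and did not pass (1.24, edgeR adjusted p = 0.0883; 1.54 and 0.0308 with total counts, where it passed). The call of Anks3 was also lost with upper-quartile scaling and in 4 of the 6 fits with a library left out. The subunit genes Cnot1, Cnot2 and Cnot3 of the deadenylase that Bicc1 recruits had log2 fold changes of -0.13, 0.01 and -0.22, and Pkd1 of -0.07, none of which passed. Prkcsh, the other gene that fell (-0.25), turned to 0.05 with total counts, where 12 of the 16 were higher and 0 lower.

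Cd44 encodes the main receptor for hyaluronan, found on leukocytes, activated stellate cells and many epithelial cells. It lies on chromosome 2 from 102811141 to 102901665 on the minus strand. WT-labelled replicates 1, 2 and 3 held 5.28, 5.88 and 10.3 CPM, and knockout-labelled replicates 1, 2 and 3 held 18.6, 24.6 and 17.9 CPM. WT-labelled replicate 3 was well above the other two, and the groups were 1.73 times apart at their nearest libraries. The fold change was 2.84 (log2 1.51, SE 0.26, edgeR adjusted p = 0.00486), and without WT-labelled replicate 3 the log2 fold change was 1.86. The count sums all transcripts, so the splice forms of CD44 were not measured.

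The 250 bases before the RefSeq start site of Cd44 (chr2:102901666-102901915, minus strand, GRCm38.p6) are shown to set beside those of Epcam; capitals mark TGGGAA, the core bound by RBPJ, the factor through which Notch acts, on either strand.
Cd44: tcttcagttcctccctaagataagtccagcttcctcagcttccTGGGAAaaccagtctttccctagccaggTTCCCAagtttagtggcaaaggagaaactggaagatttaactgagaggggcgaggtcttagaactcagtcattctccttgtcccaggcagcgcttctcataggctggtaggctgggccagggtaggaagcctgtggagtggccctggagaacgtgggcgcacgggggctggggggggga
The letters occurred 207 and 179 bases before the start site, once on each strand, and 21.6% of the 32851 windows held at least 1 such match. CACCTG and the other motifs searched had none here. Of the Prom1 windows, which are not printed, the one that lies in annotated exons held CACCTG 222, TGGGAA 116 and TGANTCA 88 bases before its start and the other TGANTCA at 189 bases. The printed windows of Epcam and Cd44 were each 56.4% G and C, against a median of 52.4% over all windows. The exonic Prom1 window was at 59.2% and the other Prom1 window at 50.8%.

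Several markers of leukocytes and of stellate cells or fibroblasts moved with Cd44. Of 12 tested leukocyte markers 8 rose and 0 fell, with a summed level of 198 to 234 CPM in the WT-labelled and 263 to 284 CPM in the knockout-labelled libraries; Ly6g was at 0 throughout, and Lcp1, at 153 ± 4.25 and 155 ± 6.29 CPM, made up most of that sum. The pan-leukocyte gene Ptprc (CD45) stood at 7.12, 6.96 and 11.2 CPM and at 18.06, 16.8 and 19.8 CPM, so WT-labelled replicate 3 was again the high library of its group. In the knockout-labelled group the 2 genes did not go together, since replicate 2 was highest for Cd44 and lowest for Ptprc. Of 14 tested stellate cell and fibroblast markers 11 rose and 0 fell, and their sum was 280.04, 296 and 429 CPM in WT-labelled replicates 1, 2 and 3 and 677 to 812 CPM in the other group. Matrix genes were among those that rose, such as Eln, Lum and Col1a1 (2.46, 2.35 and 3.03 on the log2 scale), while the stellate cell genes Lrat (0.60), Reln (0.39) and Ngfr (0.34), named outside the naming rule, did not pass (edgeR adjusted p = 0.299, 0.116 and 0.448). The part of these cells in the change of Cd44 was not tested.

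Among the ligands, enzymes and cytoskeletal linkers of CD44, 6 of 11 tested genes rose, 1 fell and 4 did not pass. The osteopontin gene Spp1, whose protein binds CD44 and integrins, rose from 36.1 ± 8.69 to 293 ± 19.2 CPM. The linker genes Ezr and Msn, of ezrin and moesin, rose by 1.86 and 0.83 on the log2 scale, while Rdx, the radixin gene of hepatocyte canaliculi, had -0.19 and did not pass. Mmp14, the membrane protease that cleaves CD44, rose by 0.71 and the sinusoidal hyaluronan receptor gene Stab2 by 0.29, the latter call being lost in 4 of the 6 fits with a library left out (edgeR adjusted p up to 0.0922). Vcan, the gene of a hyaluronan-binding proteoglycan, rose from 9 to 48 counts (edgeR adjusted p = 0.0475; up to 0.146 in the alternatives). The hyaluronidase gene Hyal1 fell by 0.47 on the log2 scale, which did not pass with total counts or without knockout-labelled replicate 1. The hyaluronan synthase genes Has1, Has2 and Has3 had 0, 0 and 6 counts over the WT-labelled and 1, 1 and 4 over the knockout-labelled libraries, too few to test. Of the epithelial splicing factors that set the exons of Cd44, Esrp1 rose from 2 counts to 64. Esrp1 and Vcan stayed under the low-count filter level in every WT-labelled library. Both were tested only through the group where they were high, so their calls are descriptions. Esrp2, the form abundant in hepatocytes, fell from 131 ± 8.15 to 101 ± 2.83 CPM (-0.37 on the log2 scale, edgeR adjusted p = 0.00292). With total counts Esrp2 was at -0.08 and did not pass.

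Ncam1 encodes the neural cell adhesion molecule, an immunoglobulin-like protein of nerve that is also used to mark reactive ductules. It lies on chromosome 9 from 49502136 to 49798925 on the minus strand, and the antisense gene Gm11149, which the table does not hold, shares 417 of its exonic bases. It was the scarcest of the 7, with 1, 12 and 3 counts in WT-labelled replicates 1, 2 and 3 and 27, 32 and 22 counts in knockout-labelled replicates 1, 2 and 3. WT-labelled replicate 2 held most of its group's reads, and the groups were 1.49 times apart at their nearest libraries. In CPM the means were 0.34 ± 0.375 and 1.36 ± 0.235 (log2 fold change 1.99, SE 0.56, edgeR adjusted p = 0.0194). Ncam1 reached the low-count filter in all 3 knockout-labelled libraries and in 1 WT-labelled library, so it was tested because of the group where it was high. Its call was lost without WT-labelled replicate 1 or 3 (edgeR adjusted p = 0.0567 and 0.0595) and without knockout-labelled replicate 1 or 2 (0.0516 and 0.0647). Without WT-labelled replicate 2 the log2 fold change was 3.35 (edgeR adjusted p = 0.0044).

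Partners of NCAM and enzymes that add polysialic acid to it were counted too. Of 5 tested, the receptor gene Fgfr1 rose by 1.11, the paralog gene Ncam2 by 1.14 and the polysialyltransferase gene St8sia4 by 1.23 on the log2 scale, the co-receptor gene Gfra1 fell by 0.47 and Fyn (0.19) did not pass. The calls of Ncam2 and St8sia4 were each lost in at least 1 of the fits with a library left out (edgeR adjusted p up to 0.0547 and 0.0721 over all alternatives). Gfra1 passed in only 6 of 14 alternatives, and its call was lost with upper-quartile scaling and with total counts (edgeR adjusted p up to 0.339). Its groups overlapped, at 358 to 482 CPM in the WT-labelled and 252 to 360 CPM in the knockout-labelled libraries. St8sia2, the other polysialyltransferase gene, had 11 and 7 counts, Chl1 had 1 and 25 counts, and Gap43 had none. Of the nerve and Schwann cell markers 1 of 4 tested rose and 0 fell; Sox10 had 1 and 5 counts and S100b 2 and 9, too few to test. The list's summed level was 169 to 182 CPM in the WT-labelled and 140 to 197 CPM in the other group, nearly all of it Erbb3, which hepatocytes also express. The stellate cell and fibroblast list given above moved with Ncam1 as well, except Lrat, Reln and Ngfr; the part of nerve or stellate cells in its change was not tested.

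To see how the 7 genes lay relative to a duct gene and a leukocyte gene in the same library, their counts were divided by those of Krt19, a keratin gene of duct cells, and of Ptprc, after adding 0.5 to each count. Such a ratio does not depend on the library scaling. With 3 libraries against 3, a two-sided exact permutation test cannot give a p below 0.1, and over the 14 ratios no Benjamini-Hochberg adjusted value was below 0.156. Krt19 itself had 18, 12 and 13 counts in the WT-labelled libraries, so its ratios there are coarse.

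For Epcam there were 0.892, 1.72 and 1.22 Epcam reads per Krt19 read in WT-labelled replicates 1, 2 and 3, and 1.30, 1.08 and 1.03 in knockout-labelled replicates 1, 2 and 3, with overlapping groups (exact permutation p = 0.8). Cd24a was the one gene whose ratio to Krt19 was higher, from 1.43 to 2.04 in the former and from 2.07 to 2.36 in the latter (exact permutation p = 0.1, the smallest possible). For Cdh1 and Cd44 the ratio was lower: Cdh1 had 36.2 to 60.4 reads per Krt19 read in the former and 10.5 to 13.8 in the latter, and Cd44 had 4.51 to 12.2 and 1.60 to 2.25 (exact permutation p = 0.1 for each). Bicc1 had 3.86 to 5.15 and 1.88 to 2.59, and Prom1 0.838 to 1.96 and 0.508 to 0.828, likewise at an exact permutation p of 0.1. The libraries of each of these 4 did not overlap, and those of Ncam1 did (exact permutation p = 0.4).

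Relative to Ptprc, 4 of the genes were higher without overlap. Cd24a reads per Ptprc read lay at 0.155 to 0.236 in the WT-labelled and 1.21 to 1.34 in the knockout-labelled libraries, and Epcam at 0.093 to 0.196 and 0.583 to 0.706. Bicc1 (0.392 to 0.636 and 1.22 to 1.46) and Prom1 (0.0817 to 0.224 and 0.325 to 0.468) were the other two, each of the 4 at the smallest possible exact permutation p of 0.1. Cd44 reads per Ptprc read were 0.742, 0.845 and 0.927 in WT-labelled replicates 1, 2 and 3 and 1.03, 1.46 and 0.906 in knockout-labelled replicates 1, 2 and 3, so these groups overlapped (exact permutation p = 0.2). The mean difference for Cd44 was 0.41 on the log2 scale and ran from 0.21 to 0.56 over the alternatives. Cdh1 (exact permutation p = 0.3) and Ncam1 (exact permutation p = 0.4) overlapped too.

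**Figure D3:**
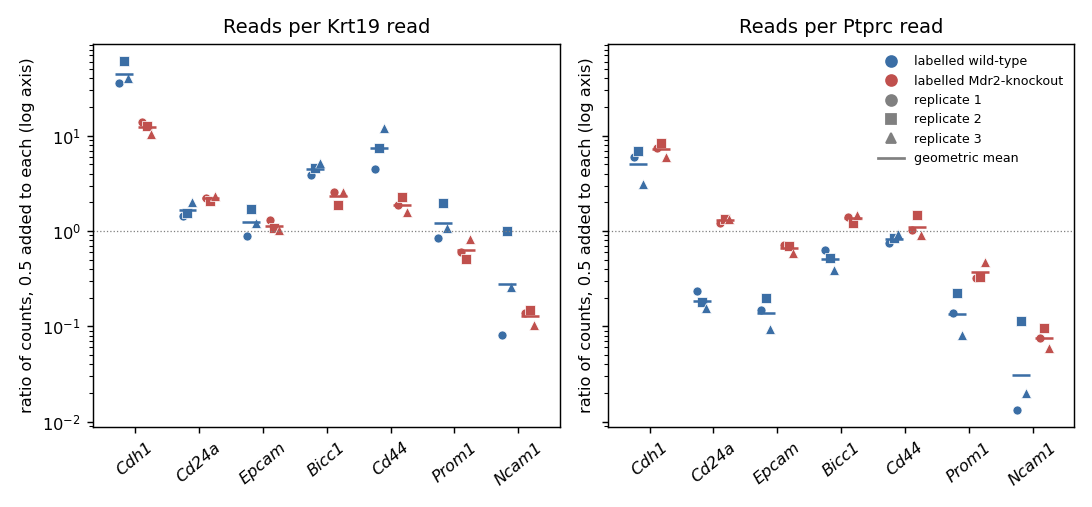
Reads of each gene per Krt19 read (left) and per Ptprc read (right) in each library, on log axes, with 0.5 added to each count; points are libraries, lines geometric means and the dotted line a ratio of 1. The groups overlap for Epcam per Krt19 read (0.892 to 1.72 and 1.03 to 1.30) and for Cd44 per Ptprc read (0.742 to 0.927 and 0.906 to 1.46). They also overlap for Ncam1 in both panels and for Cdh1 per Ptprc read.

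Further surface proteins that serve to mark or sort ducts and progenitors were mostly higher: 14 of 20 tested genes rose, 1 fell and 5 did not pass, with a median log2 fold change of 2.43. Cftr, Sctr, Itgb6, Cldn4, Cldn6 and Cldn7 stayed under the filter level in every WT-labelled library and were tested only through the group where they were high, so the count and the median are descriptions. Besides St14 and Cd9, the genes with the smallest p included Cldn4, a claudin gene (4 against 295 counts), Cftr, the chloride channel gene of duct cells (1 against 224 counts), Pkhd1 and the mucin gene Muc1, which rose from 0.932 ± 0.200 to 5.82 ± 0.397 CPM. Anpep, the aminopeptidase gene of bile canaliculi, was the gene that fell, from 227 ± 2.68 to 158 ± 3.47 CPM. Of further genes used to sort stem or progenitor cells, Cd34 and Thy1 rose by 2.43 and 1.92 on the log2 scale, Lgr5 (-0.36) and Kit (0.23) did not pass, and Dlk1, a fetal hepatoblast gene with 5 counts in each group, was not tested. These genes except Dlk1, and the claudin gene Cldn3, which did not pass with 61.0 ± 2.63 and 65.9 ± 12.96 CPM, were named after their values were seen. Cd34 and Thy1 are also genes of endothelial cells and fibroblasts.

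**Figure D4:**
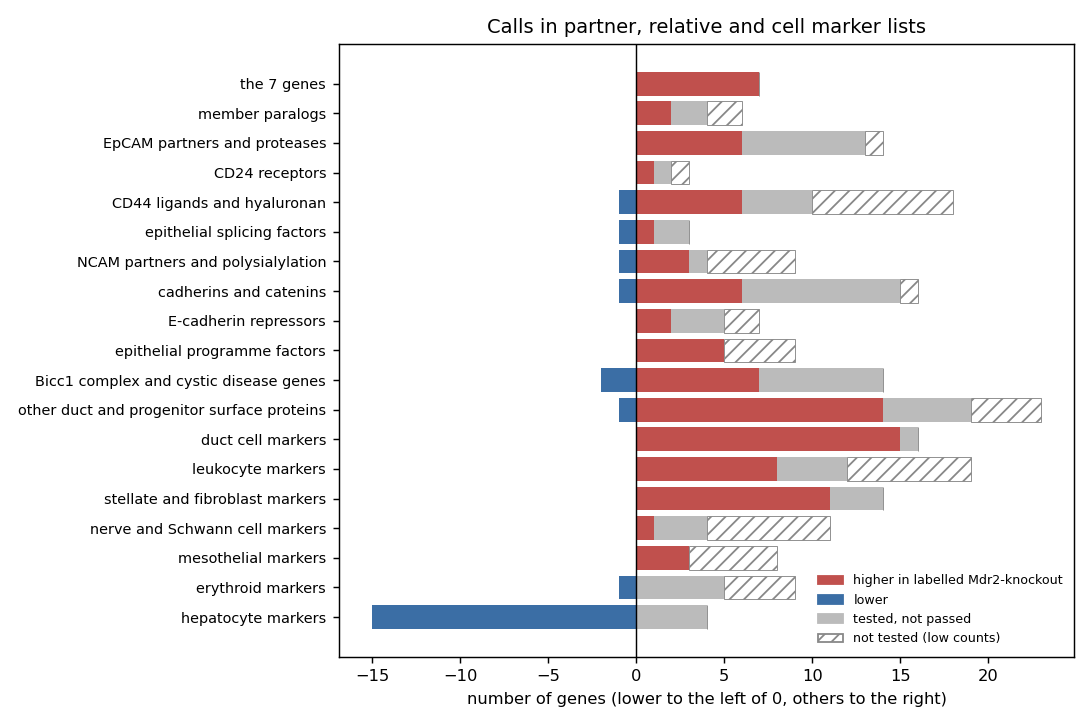
Number of genes called higher (red), lower (blue, to the left of 0), tested but not called (grey) and not tested for low counts (hatched) in each list of relatives, partners and cell markers with at least 2 tested genes (edgeR, adjusted p under 0.05). Duct markers (15 of 16) and the 7 genes are almost wholly red, and hepatocyte markers hold 15 lower genes. Some genes counted as higher, such as Cftr and Krt7, were tested only through the group where they were high.

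Mesothelial cells of the liver surface also carry several of these proteins. Of their 8 markers only 3 could be tested and those rose: Msln from 11 to 100 counts, tested only through the group where it was high, Gpm6a from 55 to 143 counts (a call lost in some fits with a library left out) and Krt19, which ducts share; Wt1 had 8 and 35 counts, Upk3b 13 and 27, Lrrn4 4 and 12, Upk1b 3 and 4 and Bnc1 3 and 3. The summed level was 2.78 to 3.12 CPM and 15.3 to 17.15 CPM, in the latter group mostly Krt19, and the part of these cells in the results was not tested. For pancreatic tissue, a possible admixture, the one tested gene, Cela2a, had 28 and 34 counts and did not pass.

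Finally, for each of the 7 the 3 genes with the most similar profile over the 6 libraries were taken from at least 11584 tested genes with a mean of at least 1 CPM, by the Euclidean distance between profiles of log2(CPM + 0.5) centred on the WT-labelled mean. For Epcam these were Cftr (distance 0.299), Spp1 and Rasal1, and for Cd24a Fbn2 (0.274), Gipc2 and Gpnmb. Prom1 was nearest to the complement gene C7 (0.228), then Col4a6 and Spon1, and Bicc1 to Hr (0.29), Svep1 and Cx3cr1. For Cdh1 they were Fut10 (0.223), Arhgap44 and Golm1, for Cd44 Abcb1b (0.191), Armcx4 and Cystm1, and for Ncam1 Zfp984 (0.285), Mansc1 and Relb. The libraries and the 2 groups are shared by all profiles, so likeness mostly follows the size of the group difference. Adding 0.5 CPM also compresses the change of genes near 0, and some of these neighbours, such as Cftr with 1 count over the WT-labelled libraries, lay at the detection floor there.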

How the data were processed

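Bulk RNA-seq of 6 mouse liver samples was used. The authors deposited whole-number read counts per gene symbol and FPKM for the same genes and libraries; the submitters' processing notes list HISAT2 and Bowtie2, HTSeq, StringTie and Cufflinks, Trimmomatic, SAMtools and DESeq, and build mm10. Their roles, versions, annotation and strandedness: not given in the sources used here. Reads of overlapping antisense genes therefore cannot be told apart. Columns named M were read as Mdr2 knockout and columns named N as wild-type, the latter by elimination, on which all directions depend; 0 columns were left without a sample. No 2 libraries within a group agreed within counting error (16.0 to 35.3 as chi-square over its degrees of freedom).

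Counts were tested with edgeR 4.0.16 (R 4.3.3): filterByExpr defaults (minimum count 10, total 15), TMM scaling, a robust quasi-likelihood fit with group as the only term, and Benjamini-Hochberg adjustment over the tested genes at 0.05. Each SE is the size of the log2 fold change over the square root of F. The authors' FPKM were used for levels only, without a test. The pipeline was tested on simulated data. The 7 genes, the lists and the motifs were chosen with earlier results of these data known. Named genes were the 7, their relatives, at most 6 tested genes per list by p, untested list genes, and the 3 nearest profiles; genes of a list beyond its first 6 by p, such as Vcan, S100a8, S100a9, Ctnnb1, Ctnnd1, Anks6, Cnot1 to Cnot3 and Pkd1, stand outside that rule and were chosen after their values were seen. Some genes of the lists are counted but not reported here by name. Alternatives were other scalings, DESeq2 1.42.0, limma-voom (limma 3.58.1), other low-count filters, a replicate block and each library left out. Positions are from GENCODE M21 (GRCm38), promoter windows from RefSeq (GRCm38.p6).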

Additional observations from a re-analysis of the deposited data

How the results depend on the processing

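The calls of Epcam, Cd24a, Prom1, Cd44, Cdh1 and Bicc1 held with the same direction in all 14 alternatives, with log2 fold changes of 3.33 to 3.71, 3.80 to 4.24, 2.33 to 2.90, 1.32 to 1.86, 1.52 to 1.94 and 2.46 to 2.87. Ncam1 kept its direction and passed in 10 of the 14; with each library left out its value ran from 1.49 to 3.35, and the lost calls are given with its result. With total counts 5943 genes were higher and 330 lower (2634 and 2051 with TMM), and 50 against 95 were lower by at least 2-fold. The share of calls that were higher was 56.2% with TMM, 67.2% with upper-quartile scaling and 94.7% with total counts. The ratio of Epcam to Krt19 turned from -0.12 on the log2 scale to 0.12 without WT-labelled replicate 2, in a range of -0.36 to 0.12 with each library left out. Counts higher in a list that moved by over 1.5 times with total counts were 12 against 6 for EpCAM partners, 13 against 6 for cadherins and catenins, 12 against 7 for Bicc1 partners, 2 against 1 for splicing factors and for nerve markers, and 2 against 0 for hepatocyte markers (8 against 15 lower). Lower calls in the lists of CD44 ligands, splicing factors, NCAM partners, cadherins, Bicc1 partners and erythroid genes were 1, 1, 1, 1, 2 and 1 with TMM and 0 in each with total counts. Elsewhere, lower CD44 ligands numbered 2 with RLE, DESeq2 and limma-voom and 3 without the filter and with the replicate block. Lower NCAM partners numbered 0 with upper-quartile scaling and both other filters, and lower Bicc1 partners 1 with upper-quartile scaling. With a library left out, CD44 ligands lower ranged from 0 to 3, NCAM partners higher from 1 to 3 and lower from 0 to 1, Bicc1 partners lower from 1 to 2, CD24 receptors higher from 0 to 1, repressors higher and relatives higher from 1 to 2, other surface proteins lower from 1 to 2, and erythroid genes higher from 0 to 2 and lower from 0 to 1. The cause of these moves was not tested. Same-numbered libraries did not deviate together (correlations of 0.103, 0.0583 and -0.0733 for numbers 1, 2 and 3), so the numbers were not taken as pairs; with the replicate block 2576 genes were higher and 1992 lower, all 7 genes stayed higher, and Ncam1 had a log2 fold change of 2.09. Ranked among tested genes only, the members lay above smaller shares of genes, for example Cdh1 above 67.6% in place of 75.4% in the WT-labelled group. Counts limit Ncam1, Prom1 and Epcam most: 3 counts equal 0.149 to 0.192 CPM in a library.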
